A study of Mus musculus with 15 samples.

Results

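Rab proteins are small GTPases that sit on vesicles and organelles and switch between an active form bound to GTP and an inactive form bound to GDP. Exchange factors load GTP, GTPase-activating proteins end the active state, and in between each Rab recruits effectors that tether, move or fuse the membrane it marks. In neurons they run the traffic of synaptic vesicles, receptors, endosomes and lysosomes between cell body, axon and dendrite. The genes described here are all those whose mouse symbol is Rab followed by a number and at most 1 letter. There were 59 such genes among 22524, and the 55 with at least 10 counts in at least 7 libraries are reported.

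The data are gene counts from the brain cortex of 15 female C57BL/6 mice aged 18 months. Of these, 7 were heterozygous for Rps9 D95N, which alters a ribosomal protein, and 8 were littermates with both copies wild type (WT). The series title speaks of error-prone translation and ageing, and the comparison asks how the transcripts of the mutant animals differ from those of their littermates. Each library is named by genotype and animal number. No batch, litter or date is labelled, and how the allele was made is not given in the sources used here.

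The sample labels name skeletal muscle where the series design names cortex. Snap25, a neuronal vesicle fusion protein, averaged 2746 CPM in D95N and 2844 CPM in WT (counts scaled to a common library size with TMM factors), and Acta1, skeletal muscle actin, averaged 5.88 and 6.46 CPM. Muscle genes (9) summed to 8.15 to 12.6 CPM in D95N and 8.26 to 32.8 CPM in WT. Library totals ran from 23349381 to 34052037 counts in D95N and from 28007441 to 34587082 in WT. Rps9 itself did not pass, at -0.05 ± 0.05 (log2, SE; adjusted p = 0.505 by edgeR), and gene counts cannot show the substitution. On the first principal component of all tested genes D95N 42 stood at 11.6, inside the WT range of 9.26 to 16.4, while the other D95N libraries lay between -28.2 and -4.04. In whole tissue, fewer cells of a type and less RNA per cell cannot be told apart.

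Of the 55 Rab genes, 7 were higher in D95N and 5 were lower, and 43 did not pass (edgeR's quasi-likelihood test, Benjamini-Hochberg adjusted p at most 0.05 over all genes). Those that rose were Rab39, Rab26, Rab15, Rab36, Rab24, Rab4b and Rab32, and those that fell were Rab3b, Rab23, Rab8b, Rab5b and Rab18. The 12 are 21.8% of the family, against 26.8% of all 14989 tested genes, of which 15.2% were higher and 11.6% lower. The median log2 fold change was 0.01 over the Rab genes and -0.01 over all tested genes, and the median size of the change was 0.08 and 0.12. For 35 of the 55 the log2 fold change was under 0.1 in size. The split of called genes depends on scaling: with library totals 5 Rab genes were higher and 9 lower, and with upper-quartile factors 6 and 9. Over all genes 29% were then called with library totals (12.1% higher, 16.9% lower) and 28.5% with upper-quartile factors (12.8% higher, 15.7% lower).

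**Figure D1:**
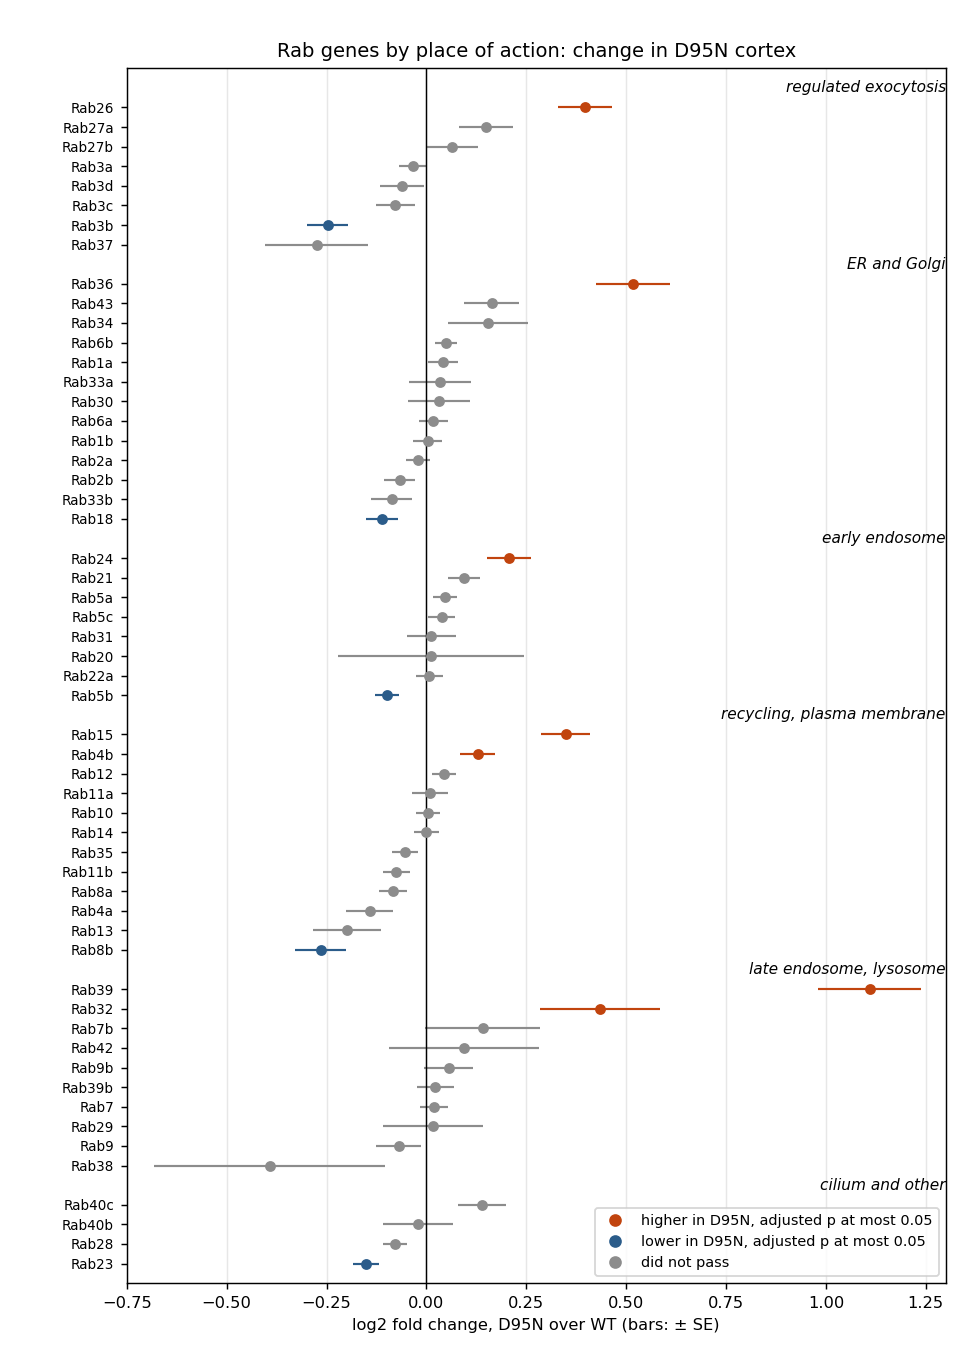
Log2 fold change of D95N over WT (horizontal axis) for each of the 55 Rab genes, grouped by the membrane where each acts, with bars of ± 1 SE. Orange points passed and were higher in D95N (7 genes), blue points passed and were lower (5 genes), and grey points did not pass. Rab39 stands at 1.11, and 35 genes lie within 0.1 of 0.

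Rab39, called RAB39A in human and known from late endosomes, phagosomes and autophagy, had the largest fold change of the family. Rab39 (ENSMUSG00000055069, GRCm38 chromosome 9, 53684110 to 53706232, minus strand) ran from 2.23 to 4.11 CPM in D95N, median 3.46, and from 1.37 to 2.04 CPM in WT, median 1.55. All 7 D95N libraries lay above all 8 WT libraries, with D95N 42 the lowest of the 7. The level in D95N was 2.16-fold that in WT, a difference of 1.11 ± 0.13 (log2, SE; adjusted p = 0.000112 by edgeR). It was the 1 Rab gene with every D95N library above every WT library, a pattern found in 1.81% of all tested genes. It is also among the scarcest of the family, at 1.17 ± 0.209 in D95N and 0.543 ± 0.077 in WT, in CPM per kb of exon (SD, n = 7 and 8).

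Its closest relative, Rab39b, is an X-linked neuronal gene whose loss in people causes intellectual disability with early parkinsonism. Rab39b (GRCm38 chromosome X, 75572046 to 75578231) stood at 62.3 ± 4.99 CPM in D95N and 61.3 ± 2.70 CPM in WT (SD, n = 7 and 8). It did not pass, at 0.02 ± 0.05 (log2, SE; adjusted p = 0.752 by edgeR). The log2 ratio of Rab39 to Rab39b counts within a library was -4.17 ± 0.317 in D95N and -5.25 ± 0.215 in WT (SD, n = 7 and 8). That is a difference of 1.07 (p = 0.000155, 0.00163 adjusted over the 21 ratios, two-sided exact permutation test; this is the smallest p the design allows). In 7 of 7 D95N libraries the ratio was higher than in any WT library. Of the 4 Rab genes on the X chromosome (Rab33a, Rab39b, Rab9 and Rab9b) 0 were called by edgeR, DESeq2 or limma-voom, and 0 had an unadjusted p under 0.05 in any of the 3. Over all tested genes 26.8% were called and 39.9% had an unadjusted p under 0.05, both by edgeR. With 4 genes, a count of 0 does not set them apart.

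The bases before the transcription start are shown for this pair, of which 1 rose and 1 did not pass, and for Rab15 and Rab3b, a gene that rose and one that fell. Sequences are from RefSeq (GRCm38.p6), 250 bases before the outermost start listed, 5′ to 3′ on the gene's strand. Capitals mark every match, on either strand, to one of 7 motifs: the CRE (TGACGTCA), its half-site (TGACG, which is part of the CRE), the AP-1 site (TGANTCA), the E-box (CACGTG), the GC box (GGGCGG), the CCAAT box (CCAAT) and the TATA box (TATAAA).
Rab39: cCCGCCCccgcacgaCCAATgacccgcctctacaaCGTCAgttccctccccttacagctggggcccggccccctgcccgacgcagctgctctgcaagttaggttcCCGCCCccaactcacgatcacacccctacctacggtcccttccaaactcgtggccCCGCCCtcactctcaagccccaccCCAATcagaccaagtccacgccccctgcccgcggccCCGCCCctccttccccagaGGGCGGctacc
Rab39b: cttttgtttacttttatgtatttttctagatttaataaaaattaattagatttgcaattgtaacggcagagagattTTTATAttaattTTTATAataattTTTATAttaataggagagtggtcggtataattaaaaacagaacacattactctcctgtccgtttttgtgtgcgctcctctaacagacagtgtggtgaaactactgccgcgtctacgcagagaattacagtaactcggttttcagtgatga
Rab15: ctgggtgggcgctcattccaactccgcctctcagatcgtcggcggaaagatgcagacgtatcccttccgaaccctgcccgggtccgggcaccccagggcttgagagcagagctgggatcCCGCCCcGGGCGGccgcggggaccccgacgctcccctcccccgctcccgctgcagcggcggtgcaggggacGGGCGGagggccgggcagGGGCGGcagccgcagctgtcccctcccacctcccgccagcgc
Rab3b: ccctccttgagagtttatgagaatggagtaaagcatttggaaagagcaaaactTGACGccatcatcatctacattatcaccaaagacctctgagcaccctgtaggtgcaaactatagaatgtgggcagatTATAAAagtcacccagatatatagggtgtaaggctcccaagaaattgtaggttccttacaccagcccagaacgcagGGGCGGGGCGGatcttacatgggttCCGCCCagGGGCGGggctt
These lie at chr9:53706233-53706482 (minus strand) for Rab39, chrX:75578232-75578481 (minus strand) for Rab39b, chr12:76822525-76822774 (minus strand) for Rab15 and chr4:108878820-108879069 (plus strand) for Rab3b. The RefSeq start is also the 5′ end of the GENCODE gene for Rab39 and Rab39b and lies 7 bases downstream of it for Rab3b. For Rab15 it lies 384 bases downstream, so the stretch shown is wholly inside the gene as GENCODE draws it. The Rab39 stretch is 68.8% G or C, with 5 GC boxes, 2 CCAAT boxes and 1 CRE half-site. The Rab39b stretch is 31.6% G or C and its matches are 3 TATA boxes. In the Rab15 stretch shown, 75.2% G or C, 4 GC boxes were found, and in Rab3b, 48.8% G or C, 4 GC boxes (1 pair overlapping), 1 TATA box and 1 CRE half-site. Rab15 also has an AP-1 site before another of its listed starts, not shown here. RefSeq promoters were matched by symbol for 45 of the 55 Rab genes, with 57 starts in all, since some genes have several (Rab15 has 4). A GC box was found in 70.2% of these, against 32.7% of all 32851 promoters of the same length, a CCAAT box in 42.1% against 33.8%, and a CRE half-site in 38.6% against 17.8%. The shares were 1.75% against 1.55% for the CRE, 3.51% against 6.75% for the AP-1 site, 8.77% against 6.02% for the E-box, and 7.02% against 12.4% for the TATA box. Median G or C content was 60.8% in the Rab promoters and 52.4% in all. All promoters were taken whatever the counts of their genes, while the Rab genes had passed the count limit, so the sets are unlike. A match describes letters, not binding.

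**Figure D2:**
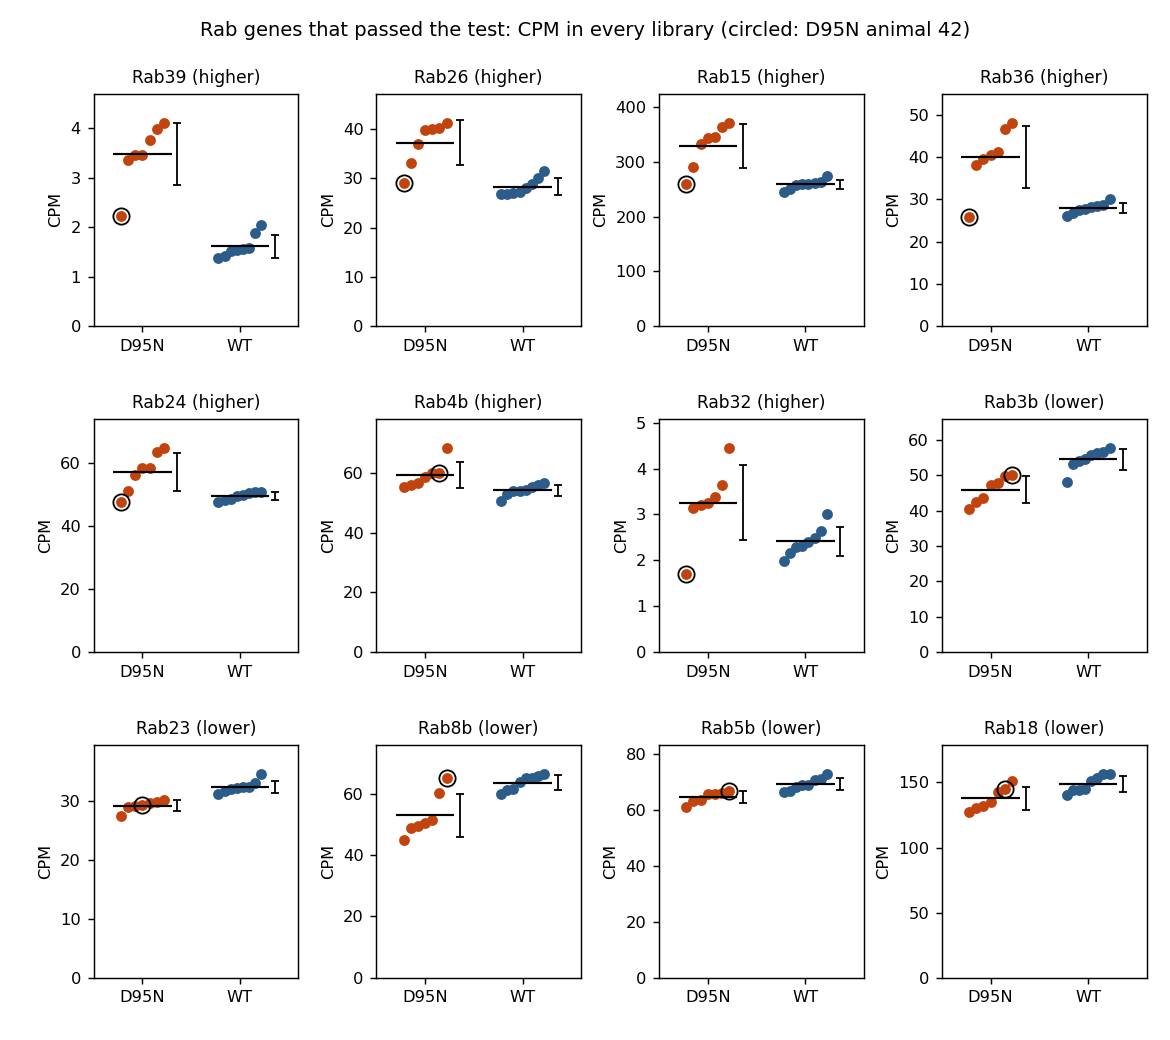
CPM (vertical axis, from 0) in every library for the 12 Rab genes that passed the test, D95N left (7 points) and WT right (8 points). Lines are means, bars beside them ± 1 SD, and the black circle marks D95N 42. Rab39 and Rab23 are the panels in which the genotypes do not overlap, and D95N 42 is the lowest D95N point in 6 of the 7 genes that rose.

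Among Rabs of regulated exocytosis, which dock and prime vesicles for release, 1 of 8 rose and 1 fell. Over all tested genes 15.2% rose and 11.6% fell, and with 8 genes such counts do not set the group apart. Rab26, known from secretory granules and from linking synaptic vesicles to autophagy, rose. It ran from 29.1 to 41.3 CPM in D95N, median 39.9, and from 26.8 to 31.4 CPM in WT, median 27.6. D95N 42 held the lowest D95N value and was the 1 D95N library inside the WT range. The level of Rab26 in D95N was 1.32-fold that in WT, or 0.40 ± 0.07 (log2, SE; adjusted p = 0.000769 by edgeR). Its exons share 10.3% of their length with other genes, among them Traf7 on the same strand, which did not pass (log2 fold change -0.05, adjusted p = 0.363 by edgeR).

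Rab3b, of the Rab3 group that sits on synaptic and secretory vesicles, fell. It ran from 40.3 to 50.1 CPM in D95N, median 47.2, and from 47.95 to 57.6 CPM in WT, median 55.1. WT 24 was the lowest WT library and brought the groups into overlap, and 5 of 7 D95N libraries lay below all WT libraries. The level of Rab3b in D95N was 0.842-fold that in WT, or -0.25 ± 0.05 (log2, SE; adjusted p = 0.00252 by edgeR). Rab3a, the main synaptic vesicle form, ran from 492 to 583 CPM in D95N, median 508, and from 512 to 544 CPM in WT, median 526, and at 0.977-fold did not pass (edgeR, adjusted p = 0.507). Its groups overlapped, with D95N 28 above all WT libraries and 4 D95N libraries below them. Rab3c was 0.948-fold (edgeR, adjusted p = 0.252) and Rab3d 0.959-fold (edgeR, adjusted p = 0.429), and neither passed.

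The log2 ratio of Rab3a to Rab3b was 3.49 ± 0.0872 in D95N and 3.28 ± 0.0706 in WT (SD, n = 7 and 8), and in 5 of 7 D95N libraries it exceeded every WT library. That difference of 0.21 passed (p = 0.000622, 0.00435 adjusted over the 21 ratios, two-sided exact permutation test). The ratios of Rab3b to Rab3c and of Rab3b to Rab3d did not pass (adjusted p = 0.114 and 0.0954, same exact permutation test). Rab27a and Rab27b, which dock dense-core granules and lysosome-related organelles, were 1.11-fold (edgeR, adjusted p = 0.1102) and 1.05-fold (edgeR, adjusted p = 0.4704). Of 7 interneuron markers 4 were higher and 1 lower, where 15.2% and 11.6% of all tested genes were. They summed to 1162 to 1802 CPM in D95N and 1161 to 1375 CPM in WT. Pan-neuronal markers, of which 2 of 10 were higher and 2 lower, summed to 8976 to 9496 CPM in D95N and 8911 to 9417 CPM in WT. The part of either in the Rab changes was not tested.

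Of 12 Rabs of recycling endosomes and plasma membrane delivery 2 rose and 1 fell, where 15.2% and 11.6% of all tested genes did. Rab15, a brain-enriched Rab of early and recycling endosomes, rose. It ran from 259 to 371 CPM in D95N, median 344, and from 245 to 274 CPM in WT, median 259. Again 6 of 7 D95N libraries lay above every WT library, and D95N 42 lay among the WT values. Rab15 (ENSMUSG00000021062, GRCm38 chromosome 12, 76797960 to 76822908) stood in D95N at 1.27-fold its WT level, or 0.35 ± 0.06 (log2, SE; adjusted p = 0.000947 by edgeR). Of the 12 called genes it had the highest level per length, 71.3 ± 8.75 in D95N and 56.03 ± 1.86 in WT, in CPM per kb (SD, n = 7 and 8).

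Rab8b, which with Rab8a carries cargo to the plasma membrane and cilium, fell. It ran from 44.8 to 65.04 CPM in D95N, median 50.5, and from 59.8 to 66.4 CPM in WT, median 64.5. D95N 41 and 42 lay inside the WT range and the other 5 below it. The level of Rab8b in D95N was 0.832-fold that in WT, or -0.26 ± 0.06 (log2, SE; adjusted p = 0.006596 by edgeR). Rab8a was 0.944-fold and did not pass (edgeR, adjusted p = 0.0783). The log2 ratio of Rab8a to Rab8b differed by 0.19 and did not pass (p = 0.0345, 0.0954 adjusted over the 21 ratios, two-sided exact permutation test).

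Rab4a and Rab4b both serve rapid recycling from early endosomes. Rab4b ran from 55.3 to 68.4 CPM in D95N, median 58.6, and from 50.6 to 56.6 CPM in WT, median 54.3, with D95N 28 the highest, and rose 1.09-fold (edgeR, adjusted p = 0.0343). Rab4a ran from 31.5 to 42.8 CPM in D95N, median 40.4, and from 40.05 to 44.5 CPM in WT, median 41.8, and at 0.906-fold did not pass (edgeR, adjusted p = 0.0805). Both genes overlapped between genotypes, while their ratio did not. The log2 ratio of Rab4a to Rab4b was -0.65 ± 0.117 in D95N and -0.37 ± 0.0464 in WT (SD, n = 7 and 8), lower in 7 of 7 D95N libraries than in any WT library. That difference of -0.28 had p = 0.000155, 0.00163 adjusted over the 21 ratios (two-sided exact permutation test; this is the smallest p the design allows). A ratio within a library does not depend on scaling. The call of Rab4b itself was lost with library totals (adjusted p = 0.125 by edgeR), with upper-quartile factors (0.0727) and without D95N 41 or WT 8, 24, 30, 32 or 43 (up to 0.0639). Rab4b shares 64.97% of its exon length with other annotated genes, among them Gm21983 (GRCm38 chromosome 7, 27168430 to 27181086, same strand). The count of Gm21983 was 0.561% to 2.19% above that of Rab4b in every library, so reads of the pair cannot be told apart.

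**Figure D3:**
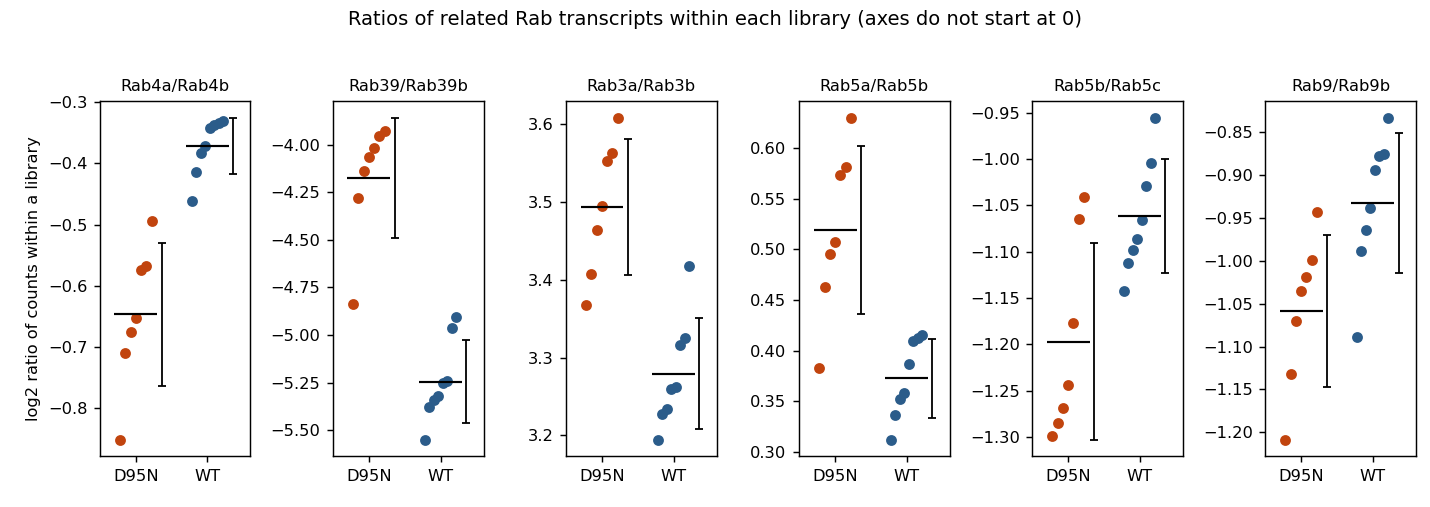
Log2 ratio of the counts of 2 Rab genes of the same number within each library (vertical axes, not starting at 0), D95N left and WT right, for the 6 of 21 ratios with an adjusted p at most 0.05. Lines are means and bars ± 1 SD. Rab4a/Rab4b and Rab39/Rab39b do not overlap between the genotypes, and the other 4 ratios do. Rab5a/Rab5b and Rab5b/Rab5c share Rab5b, so the 6 are not independent. Ratios of other gene pairs were not computed, so the count of 6 has no background to be read against.

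Of 8 Rabs placed at early endosomes and related compartments, 1 rose and 1 fell, where 15.2% and 11.6% of all tested genes did. Rab24, an atypical Rab linked to autophagy, rose. It ran from 47.7 to 64.7 CPM in D95N, median 58.4, and from 47.7 to 50.8 CPM in WT, median 49.7. D95N 42 held the lowest value of all 15 libraries and the other 6 D95N libraries lay above every WT library. The level of Rab24 in D95N was 1.15-fold that in WT, or 0.21 ± 0.05 (log2, SE; adjusted p = 0.0106 by edgeR). Its exons overlap Prelid1, on the opposite strand, over 62.4% of their length, and Prelid1 was itself higher (log2 fold change 0.14, adjusted p = 0.0256 by edgeR). No source used here states the strand setting of the counting, which makes Rab24 uncertain.

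Rab5 proteins organise early endosomes, and 1 of the 3 genes fell. Rab5b ran from 60.9 to 66.6 CPM in D95N, median 65.5, and from 66.3 to 72.7 CPM in WT, median 68.7. D95N 42 reached into the WT range and the other 6 lay below it. The change was small, 0.933-fold (edgeR, adjusted p = 0.02299). Rab5a was 1.03-fold (edgeR, adjusted p = 0.257) and Rab5c 1.03-fold (edgeR, adjusted p = 0.419), and neither passed. The log2 ratio of Rab5a to Rab5b was 0.52 ± 0.0832 in D95N and 0.37 ± 0.0389 in WT (SD, n = 7 and 8), with 6 of 7 D95N libraries above every WT library, a difference of 0.15 (p = 0.00109, 0.00571 adjusted over the 21 ratios, two-sided exact permutation test). Rab5b to Rab5c differed by -0.14 (p = 0.0118, 0.04895 adjusted over the 21 ratios, same exact permutation test). That second call was kept in 4 of the 15 repeats that leave out 1 library, with an adjusted p of up to 0.0795 by the exact permutation test.

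Of the 10 Rabs of late endosomes, lysosomes and related organelles, 2 rose (Rab39 and Rab32) and 0 fell. The shares of all tested genes were 15.2% and 11.6%. Rab32 acts in lysosome-related organelles and at mitochondria. It ran from 1.71 to 4.44 CPM in D95N, median 3.26, and from 1.99 to 3.01 CPM in WT, median 2.36. D95N 42 was the lowest of all 15 libraries, and the other 6 lay above every WT library. The level of Rab32 in D95N was 1.35-fold that in WT, or 0.43 ± 0.15 (log2, SE; adjusted p = 0.0405 by edgeR). Its call held without D95N 42, WT 24 or WT 32 and was lost without any other single library (adjusted p of up to 0.0986 by edgeR), with library totals (0.0507) and with limma-voom (0.0709). Of 8 microglial markers beside it 1 was higher and 0 lower, where 15.2% and 11.6% of all tested genes were. They summed to 393 to 527 CPM in D95N and 449 to 586 CPM in WT, and their part was not tested.

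Rab7, the main Rab of late endosomes and lysosomes, averaged 207 ± 12.8 CPM in D95N and 205 ± 5.09 CPM in WT (SD, n = 7 and 8) and did not pass, at 0.02 ± 0.04 (log2, SE; adjusted p = 0.727 by edgeR). Rab29, of the Golgi and stressed lysosomes, was 1.01-fold (edgeR, adjusted p = 0.938). Rab9 and Rab9b, of traffic from late endosomes to the Golgi, did not pass singly (adjusted p = 0.378 and 0.5262 by edgeR), while their log2 ratio was -1.06 ± 0.0886 in D95N and -0.93 ± 0.0813 in WT (SD, n = 7 and 8). That difference of -0.13 (p = 0.01399, 0.04895 adjusted over the 21 ratios, two-sided exact permutation test) was called in 3 of the 15 repeats that leave out 1 library, with an adjusted p of up to 0.0989 by the exact permutation test.

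The ER and Golgi group held 13 genes, with 1 higher and 1 lower, where 15.2% and 11.6% of all tested genes were. Rab36, which binds the lysosomal adaptor RILP and acts at the Golgi and late endosomes, rose. It ran from 25.8 to 48.1 CPM in D95N, median 40.3, and from 26.05 to 30.01 CPM in WT, median 27.9. The 6 D95N libraries other than 42 lay above every WT library, and D95N 42 lay below them all. The level of Rab36 in D95N was 1.43-fold that in WT, or 0.52 ± 0.09 (log2, SE; adjusted p = 0.000978 by edgeR). Rab34, a related Rab of the Golgi and cilium, was 1.11-fold (edgeR, adjusted p = 0.265) and did not pass.

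Rab18, of the ER and lipid droplets, ran from 127 to 151 CPM in D95N, median 135, and from 141 to 156 CPM in WT, median 148. The groups overlapped, with 4 of 7 D95N libraries below all WT libraries. At 0.926-fold it passed narrowly (edgeR, adjusted p = 0.0487). Its call held without D95N 4, 42 or 44 or WT 24 and was lost without any of the other 11 single libraries (adjusted p of up to 0.0948 by edgeR), with DESeq2 size factors (0.0521) and without a filter on low counts (0.0649).

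The same group holds the most abundant Rabs of the Golgi, and these did not pass. Rab6b, the neuronal form of a Golgi transport Rab, ran from 1064 to 1137 CPM in D95N, median 1088, and from 1020 to 1096 CPM in WT, median 1059, with 3 D95N libraries above every WT library, and was 1.03-fold (edgeR, adjusted p = 0.189). Rab6a, its widely expressed relative, ran from 595 to 699 CPM in D95N, median 647, and from 610.2 to 682 CPM in WT, median 642, and was 1.01-fold (edgeR, adjusted p = 0.75). In both the groups overlapped. The exons of Rab6a overlap Mrpl48, on the opposite strand, over 18.99% of their length. Mrpl48 was lower (log2 fold change -0.13, adjusted p = 0.0287 by edgeR). Rab1a, Rab1b and Rab2a, which carry traffic between ER and Golgi, had log2 fold changes of 0.04 ± 0.04, 0.00 ± 0.04 and -0.02 ± 0.03 (SE), and did not pass.

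Of 4 genes of the cilium and other places 1 fell, where 11.6% of all tested genes did. Rab23, which restrains Hedgehog signalling at the cilium, ran from 27.5 to 30.3 CPM in D95N, median 29.4, and from 31.2 to 34.6 CPM in WT, median 32.3. All 7 D95N libraries, 42 among them, lay below all 8 WT libraries, a pattern found in 1.47% of all tested genes and in 1 of the 55 Rab genes. The change was small, 0.901-fold, or -0.15 ± 0.03 (log2, SE; adjusted p = 0.00346 by edgeR). Rab28, known from photoreceptor cilia, was 0.947-fold (edgeR, adjusted p = 0.0549), and Rab40c, an adaptor of a ubiquitin ligase, 1.101-fold (edgeR, adjusted p = 0.0896). Neither passed with all libraries, and both did without D95N 42.

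Per exon length, Rab3a was the most abundant Rab transcript, at 232 ± 14.2 in D95N and 237 ± 5.67 in WT, in CPM per kb (SD, n = 7 and 8 here and below). Rab6b followed at 218 ± 5.72 in D95N and 211 ± 5.42 in WT, Rab6a at 174 ± 8.94 in D95N and 172 ± 6.97 in WT and Rab2a at 139 ± 3.32 in D95N and 141 ± 5.86 in WT. The first of these neighbours, Rab3a and Rab6b, lay within 1 SD of Rab3a of each other in D95N and not in WT. Rab7, Rab15, Rab1b, Rab5c and Rab1a came next in D95N, from 79.4 for Rab7 to 62.2 for Rab1a. At the low end Rab7b stood at 0.313 ± 0.0547 in D95N and 0.285 ± 0.0506 in WT and Rab38 at 0.3396 ± 0.179 in D95N and 0.4401 ± 0.153 in WT. Rab38 was also the gene nearest to the count limit, with at least 10 counts in 14 libraries and a median of 17. Just outside it was Rab44, with at least 10 counts in 2 libraries and at most 12, and Rab25, Rab17 and Rab19 had at most 8, 5 and 5 counts. Summed over the 55 genes, the family took 6365 to 6716 CPM in D95N and 6267 to 6610 CPM in WT.

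**Figure D4:**
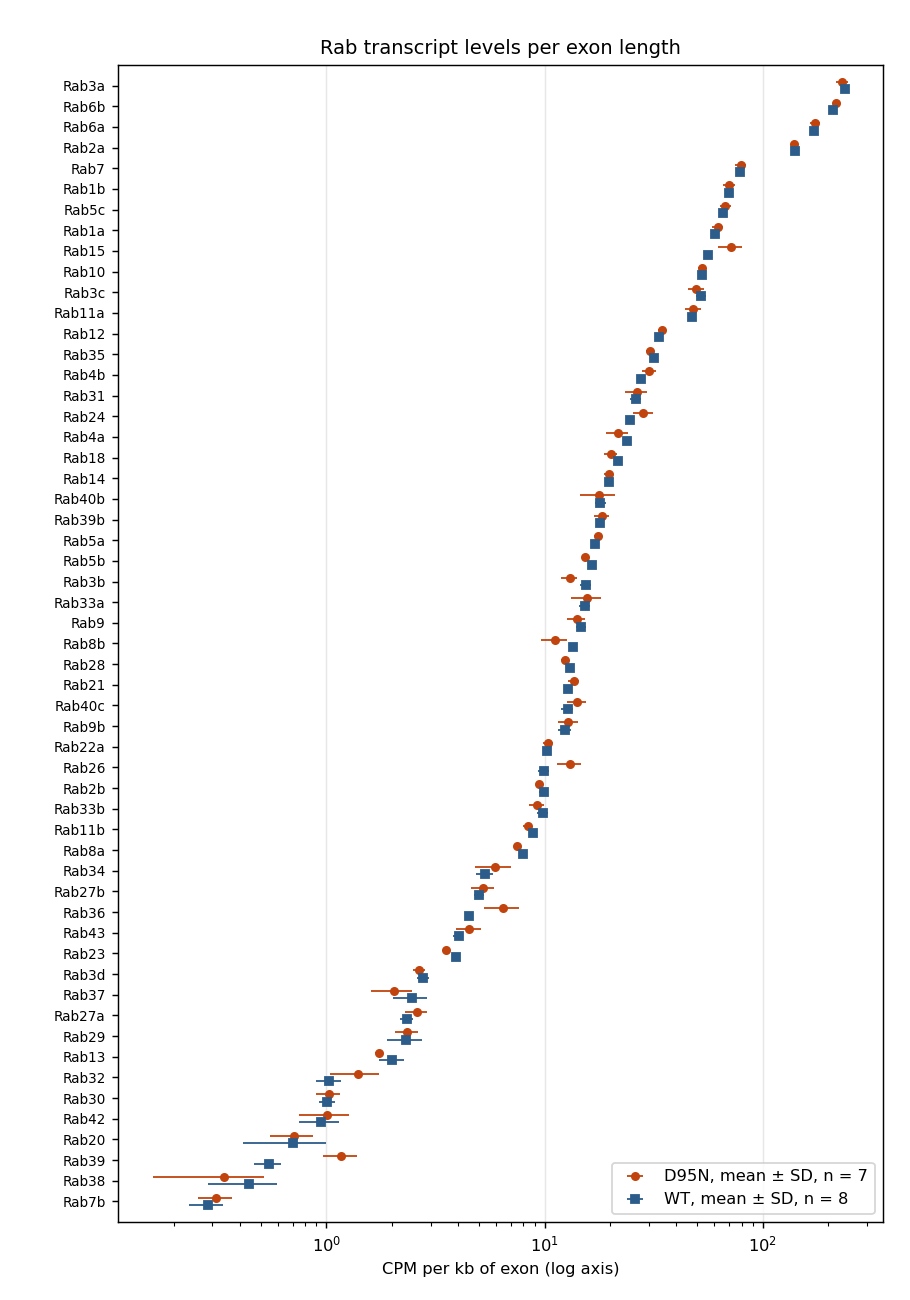
Level of each of the 55 Rab genes in CPM per kb of exon (horizontal log axis), D95N circles (mean ± SD, n = 7) above WT squares (mean ± SD, n = 8), sorted by the WT level. Rab3a, Rab6b, Rab6a and Rab2a lie above 100, and the points of Rab39 lie 2.16-fold apart.

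The D95N libraries spread more widely than the WT libraries in 49 of 55 Rab genes (89.1%), as in 83.04% of all tested genes. The median SD of log2 CPM over the Rab genes was 0.119 in D95N and 0.0608 in WT, against 0.149 and 0.0878 over all tested genes. Over the 12 called genes D95N 42 lay within the WT range in 6, D95N 4 and 44 in 2 each, D95N 28 and 41 in 1 each, and D95N 21 and 50 in 0. In Rab36, Rab24 and Rab32, called higher, D95N 42 lay below every WT library. Only in Rab39, Rab4b and Rab23 did it lie outside the WT range in the called direction. D95N 42 was the lowest D95N library for 6 of the 7 genes that rose and the highest for 3 of the 5 that fell. Without it 8 Rab genes were higher and 6 lower, against 33.1% of all tested genes called (17.9% higher, 15.2% lower). Without D95N 41, the next nearest to WT on the first principal component, 5 were higher and 4 lower, against 28.2% of all tested genes (16.1% higher, 12.1% lower). Among the genes that rose the top library differed: it was D95N 28 in Rab24 and Rab4b, D95N 44 in Rab39 and Rab32, and D95N 21 in Rab26, Rab15 and Rab36.

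Markers of blood and of the meninges also moved with genotype. Each of the 8 genes of the blood list fell, where 11.6% of all tested genes did. They summed to 37.3 to 149 CPM in D95N and 81.4 to 312 CPM in WT. Of 11 meningeal fibroblast genes 5 were lower and 0 higher, where 11.6% and 15.2% of all tested genes were. These genes summed to 101 to 213 CPM in D95N and 183 to 244 CPM in WT. With scores of both lists in the fit, 0 Rab genes passed by edgeR, against 0.0801% of all tested genes, 0.0267% higher and 0.0534% lower. In that fit 6 of 55 Rab genes (10.9%) and 15.1% of all tested genes had an unadjusted p under 0.05, against 22 of 55 and 39.9% of all tested genes without scores. The median SE over the Rab genes was 0.0881 with the scores, against 0.0513 without them. All 12 called genes kept their sign. With the scores the log2 fold change (and adjusted p by edgeR) of Rab39 was 0.89 (0.141), of Rab3b -0.31 (0.1603), of Rab36 0.22 (0.499) and of Rab24 0.03 (0.866). Adding instead the scores of 3 other lists (oligodendrocyte, choroid plexus, striatal neuron) gave 6 Rab genes higher and 5 lower, against 20.2% of all tested genes called (11.6% higher, 8.59% lower). Of the 12 calls 9 were kept, those of Rab32, Rab4b and Rab5b were lost, and Rab34 (higher) and Rab3c (lower) passed there.

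The wider Rab machinery was described with 161 listed regulators and effectors, of which 158 matched a gene in the files and 156 were tested. In all 32 were higher and 10 lower, or 26.9%, against 26.8% of all tested genes (15.2% higher, 11.6% lower). With library totals 27 were higher and 19 lower, where 12.1% and 16.9% of all tested genes were, and with upper-quartile factors 28 and 16, where 12.8% and 15.7% were. The lower count was 17 without D95N 41 and 20 without D95N 42, where 12.1% and 15.2% of all tested genes were lower. With the blood and meningeal scores in the fit 0 of the 156 were higher and 0 lower, so that none of the regulator and effector calls that follow was kept in that fit. Of the 8 factors that attach the lipid anchor of Rabs or carry them through the cytosol 0 passed by edgeR, DESeq2 or limma-voom, and 3 had an unadjusted p under 0.05 in each. Over all tested genes 39.9% had such a p by edgeR.

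Among 42 exchange factors 5 were higher and 1 lower, where 15.2% and 11.6% of all tested genes were. Sbf1, a pseudophosphatase with a DENN domain, ran from 217 to 283 CPM in D95N, median 262, and from 196 to 219.7 CPM in WT, median 207, and rose 1.24-fold (edgeR, adjusted p = 0.000459). Rin3, an exchange factor for the Rab5 group, ran from 5.68 to 12.8 CPM in D95N, median 9.45, and from 2.79 to 6.27 CPM in WT, median 4.25, and rose 2.01-fold (edgeR, adjusted p = 0.000694). Madd, which activates Rab3 and Rab27, rose 1.17-fold (edgeR, adjusted p = 0.00109). The groups overlapped in all 3. The 1 exchange factor that fell, Dennd5a, which contacts Rab6, ran from 282 to 310.4 CPM in D95N, median 307, and from 315 to 338 CPM in WT, median 323. It fell to 0.931-fold without overlap (edgeR, adjusted p = 0.0121).

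Among 40 GTPase-activating proteins 11 were higher and 3 lower, where 15.2% and 11.6% of all tested genes were. Rab3gap2, a subunit of the complex that inactivates Rab3 and activates Rab18, ran from 121 to 141 CPM in D95N, median 138, and from 104 to 119 CPM in WT, median 111. It rose 1.203-fold with no overlap between the groups (edgeR, adjusted p = 0.000333). Rab3gap1, also of this complex, was 1.01-fold and did not pass (edgeR, adjusted p = 0.792). Tbc1d10a, which acts on Rab27a and Rab35, ran from 25.2 to 45.4 CPM in D95N, median 36.2, and from 21.6 to 23.97 CPM in WT, median 23.3, and rose 1.57-fold, also without overlap (edgeR, adjusted p = 0.000551). Sgsm1, a brain-enriched protein that binds Rab and Rap GTPases, rose 1.41-fold with overlap (edgeR, adjusted p = 0.000681).

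Of 59 effectors 12 were higher and 6 lower, where 15.2% and 11.6% of all tested genes were. Rab11fip5, which binds Rab11 on recycling endosomes, ran from 127 to 158 CPM in D95N, median 141, and from 107 to 115 CPM in WT, median 111, and rose 1.26-fold without overlap (edgeR, adjusted p = 0.0001404). Next by p were Clec16a, an endosomal protein, at 1.11-fold (edgeR, adjusted p = 0.00426) and Sytl1, an effector of Rab27 with a WT median of 1.22 CPM, at 1.96-fold (edgeR, adjusted p = 0.00447). Both overlapped between the groups. Sytl2, also an effector of Rab27, ran from 32.1 to 52.5 CPM in D95N, median 44.7, and from 51.7 to 63.3 CPM in WT, median 57.4, and fell to 0.744-fold with overlap (edgeR, adjusted p = 0.00472). Dennd5a and Sytl2 were named after their values were seen.

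The last list holds 7 genes around LRRK2, a kinase mutated in Parkinson disease that phosphorylates a subset of Rabs, and 4 of them were higher, where 15.2% of all tested genes were. Ppm1h, the phosphatase that takes that phosphate off Rabs, ran from 97.4 to 194 CPM in D95N, median 144, and from 90.1 to 109 CPM in WT, median 98.1, and rose 1.56-fold (edgeR, adjusted p = 0.000997). Mapk8ip3, a motor adaptor that binds phosphorylated Rabs, rose 1.11-fold without overlap (edgeR, adjusted p = 0.00182), and Tbk1, a kinase with Rab7 among its substrates, 1.11-fold with overlap (edgeR, adjusted p = 0.00777). Lrrk2 itself, named here after its values were seen, ran from 52.3 to 82.4 CPM in D95N, median 70.1, and from 51.98 to 62.9 CPM in WT, median 55.5, and rose 1.22-fold (edgeR, adjusted p = 0.0189). The rest of the list, Spag9, Lrrk1 and Vps35, were 0.926-fold, 0.916-fold and 0.999-fold. None of them passed (edgeR, adjusted p = 0.0508, 0.444 and 0.984). Of 14 Rabs reported as LRRK2 substrates in human cells, a list also chosen after the values were seen, 3 fell (Rab3b, Rab8b and Rab5b), where 11.6% of all tested genes did. Higher calls among the 14 numbered 0 by edgeR, DESeq2 and limma-voom, where 15.2% of all tested genes were higher by edgeR, and 1 was higher at an unadjusted p under 0.05 in each. With 14 genes, counts of this size do not set the list apart. Their median log2 fold change was -0.04, against -0.01 over all tested genes.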

How the data were processed

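Per the labels, RNA was taken from frozen tissue with Trizol and sequenced on Illumina machines. The deposited values are raw counts per Ensembl gene, 1 table per sample, made by the authors with STAR and featureCounts on GRCm38, per the submitters' processing notes. The sources used here give no versions, annotation, strand setting or rule for shared reads. Of 22524 identifiers 22291 matched GENCODE M21 and 233 did not, and family members were taken by symbol.

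All 15 libraries were fitted with edgeR 4.0.16 in R 4.3.3 (TMM factors, default filter on low counts, genotype alone), with p-values adjusted over all 14989 genes. The SE of a log2 fold change is its size over the root of the F statistic. CPM was computed from the deposited counts. Ratios used counts plus 0.5 and an exact permutation test over every split of the 15 samples. Alternatives were DESeq2 1.42.0, limma 3.58.1, other scalings, filters and covariates, and leaving out each library.

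Genes were named by rule: called members, the 3 most abundant uncalled members, relatives of called members, and 3 called genes per list. Others named beside these (such as Rab7, Rab27a, Rab34 and Sytl2) were added after their values were seen. The members and lists were chosen with earlier results of these data known. The labels give each sample as a separate animal. Gene roles are background knowledge. Depth limits most the genes near 1 CPM.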

Additional observations from a re-analysis of the deposited data

Results flagged for a closer look

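In 9 of 110 groups of values (55 Rab genes in each genotype) 1 library lay well apart from its group. Chance alone would give this in about 1 of 20 independent groups. These groups share the same 15 libraries, so the count cannot be read against that rate. Among D95N libraries, animal 28 was the highest in Rab1b (182 CPM, next 160), Rab3a (583 CPM, next 521) and Rab4b (68.4 CPM, next 60.1) and the lowest in Rab5a (85.4 CPM, next 91). D95N 42 was the lowest in Rab39 (2.23 CPM, next 3.36) and D95N 50 the highest in Rab38 (1.12 CPM, next 0.604). Among WT libraries, animal 16 was the highest in Rab12 (107 CPM, next 102), animal 24 the lowest in Rab3b (48 CPM, next 53) and animal 43 the lowest in Rab9 (22.8 CPM, next 25.5).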

How the results depend on the processing

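Called Rab genes numbered 7 higher and 5 lower. Scaled by library totals, 9 were lower, and with upper-quartile factors also 9. With blood and meningeal scores 0 were higher and 0 lower, as for regulators and effectors (0 and 0), and 12 genes were called in all, against 4016. Regulators and effectors called lower were 19 when scaled by library totals and 16 by upper quartiles, against 10.

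Leaving out 1 library gave 3263 to 4976 called genes, 5 to 8 Rab genes higher and 4 to 6 lower, 26 to 36 regulators and effectors higher and 9 to 20 lower (17 without D95N 41 and 20 without D95N 42), and 4 to 10 ratios that differed, against 6 (10 without D95N 28). The ratios Rab39/Rab39b, Rab4a/Rab4b, Rab3a/Rab3b and Rab5a/Rab5b passed in each of the 15 repeats. Rab28 and Rab40c passed without D95N 42, Rab4a, Rab21 and Rab37 without D95N 28, and Rab43 without D95N 4. Rab43 shares 75.35% of its exon length with Gm45140, a gene without counts here. No called Rab gene changed sign in any of 24 alternatives. Rab39, Rab26, Rab15, Rab36, Rab3b, Rab23, Rab8b and Rab24 each kept their call in 23, all but the one with blood and meningeal scores. The cause of these shifts was not tested. The mice were littermates, but litter is not labelled, so no analysis paired by litter was possible and the fits do not account for litter. Genes near 1 CPM, such as Rab42, Rab20 and Rab38, had SEs of 0.19, 0.23 and 0.29 on the log2 scale.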
